A study of Mus musculus with 6 samples.

Results

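The chemokine ligands described here are 10 genes, Ccl2, Ccl3, Ccl4, Ccl5, Ccl6, Ccl9, Ccl24, Cxcl2, Cxcl10 and Cxcl16, taken by symbol from a table of 55471 mouse gene IDs. All 10 were in the table, each under 1 gene ID. RNA was sequenced from L28BME cells, which carry LIN28B together with the leukaemia fusion MLL-ENL, and from ME cells, which carry MLL-ENL without LIN28B, with 3 libraries per group. Both kinds of cell were GMLPs, a multipotent progenitor fraction of mouse bone marrow, gated as Lin- Kit+ Sca1+ CD48+ CD150-, and both spent 3 days in culture with doxycycline (DOX). LIN28B is an RNA-binding protein that keeps let-7 precursors from maturing, and MLL-ENL joins a histone methyltransferase to a protein of the transcription elongation machinery. The labels give no age, no promoter for either transgene and no number of animals, and do not tell whether the replicates are separate mice or cultures. The p-values therefore measure only the spread between these libraries, which may be technical.

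Chemokines are small secreted proteins that bind G protein-coupled receptors on leukocytes and draw the cells along a gradient. They are named for the spacing of their first cysteines, side by side in the CC class and parted by a residue in the CXC class. In bone marrow they guide the release and homing of myeloid cells, and Ccl3 is also known as an inhibitor of stem and progenitor cell division. Ccl6 and Ccl9 are CC chemokines of rodent myeloid cells. Many chemokine mRNAs are made on demand through NF-kB or interferon signalling and are short-lived, because AU-rich elements in their 3′ UTRs bind decay factors such as tristetraprolin.

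Values are TPM, a transcript abundance scaled for length and to a fixed total per library. The depth behind them is unknown, so no counting interval can be given. Lin28b was at 11.2, 11.7 and 11.9 TPM in L28BME libraries and was listed at 0 in every ME library. The sort genes Kit and Cd48 were high in all 6 libraries. Kit was at 73.2 to 106 TPM, with groups that overlapped. Cd48 was lower in L28BME, at 226 to 231 TPM, than in ME, at 291 to 302 TPM. Against the gate, Ly6a, which encodes Sca1, was low, at 1.38 to 3.18 TPM in L28BME and 9.64 to 11.8 TPM in ME, and Slamf1, which encodes the excluded CD150, was under 1 TPM in each library.

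Ccl9 and Ccl6 fell in L28BME cells, whereas Ccl3 and Ccl4, which lie beside them on chromosome 11, did not pass the test and had narrow intervals around no difference. In these bulk libraries, fewer cells of a type and less RNA per cell cannot be told apart. The other 6 genes were under 4 TPM in every library. Of the 10 genes, 9 had a lower mean in L28BME and 1, Ccl3, a higher one. The 9 include these 6 low genes and Ccl4, whose groups overlapped. The share of all genes with a lower mean was not taken, so this count is not read further. Genes that reached 1 TPM in 3 or more libraries were tested with limma on log2(TPM + 1), and a gene was called at a Benjamini-Hochberg adjusted p under 0.05 over all 13348 genes tested. On this rule 6 of the 10 ligands were tested, 3 were called lower (Ccl6, Ccl9 and Cxcl10) and 0 higher, where 6.6% of all genes tested were called lower and 8.28% higher. For 4 of the 6 tested ligands all L28BME values lay below all ME values, as they did for 17.4% of all genes tested. For 0 of the 6 they lay above, against 19.4% of all genes tested, and groups without overlap made up 36.7% of all genes either way. Of the 4 untested ligands, 2 had groups without overlap, both lower in L28BME. Cxcl10 reached 1 TPM in the ME libraries alone, and Ccl5 in the 3 ME libraries and 1 L28BME library. Both thus entered the test through the ME libraries. Neither the count of called ligands nor that of groups without overlap is therefore read further.

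**Figure D1:**
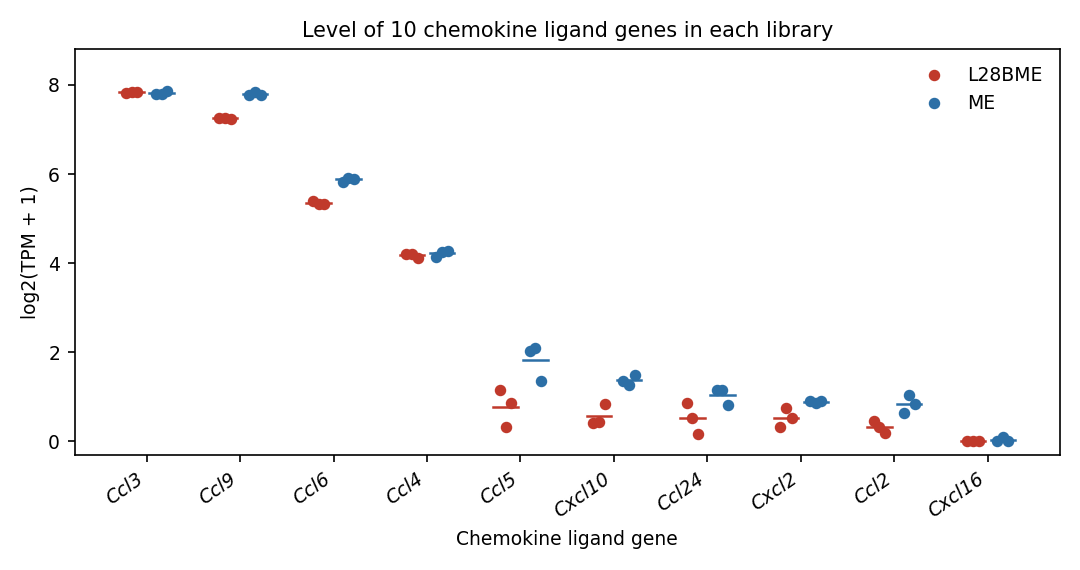
Each point is 1 library, with L28BME left of ME for each gene, the y axis gives log2(TPM + 1) and short lines are group means (n = 3 each). Ccl3, Ccl9, Ccl6 and Ccl4 stand apart from the 6 genes under 4 TPM, and among them only Ccl9 and Ccl6 have groups that do not overlap.

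The sequences around the start sites of Ccl9 and Ccl6 are shown because these neighbouring genes changed together. Whether shared sequence plays a part in that change was not tested. The promoters are RefSeq sequences of GRCm38.p6, from 250 bases before to 50 bases after the annotated start. Promoter sequences were matched for 5 of the 10 genes, Ccl3, Ccl6, Ccl9, Cxcl2 and Cxcl10. In the first pair, capitals mark bases that are identical in a local alignment of the promoters, both on the minus strand, chr11:83578587-83578886 for Ccl9 and chr11:83593038-83593337 for Ccl6.
Ccl9: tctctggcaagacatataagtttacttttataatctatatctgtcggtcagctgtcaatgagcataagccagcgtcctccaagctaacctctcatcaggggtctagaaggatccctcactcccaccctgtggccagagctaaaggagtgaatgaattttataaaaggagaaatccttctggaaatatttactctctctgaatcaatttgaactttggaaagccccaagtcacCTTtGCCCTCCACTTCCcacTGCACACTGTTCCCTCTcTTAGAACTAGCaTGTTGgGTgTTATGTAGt
Ccl6: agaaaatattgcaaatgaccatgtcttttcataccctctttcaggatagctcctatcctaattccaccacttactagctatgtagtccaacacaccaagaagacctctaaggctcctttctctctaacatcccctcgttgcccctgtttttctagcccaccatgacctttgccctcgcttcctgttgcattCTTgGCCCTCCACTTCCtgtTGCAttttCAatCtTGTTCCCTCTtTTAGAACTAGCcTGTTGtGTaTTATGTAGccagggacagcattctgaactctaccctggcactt
The aligned stretch was 74 columns long with 59 identical bases, or 79.7%, and ran from -18 to 49 relative to the start of Ccl9 and from -59 to 15 relative to that of Ccl6. The alignment score, which adds 1 for a match and subtracts for mismatches and gaps, was 41 for this pair and 9 to 15 for the other 9 pairs of the 5 promoters. The Ccl3 promoter, chr11:83649329-83649628 on the minus strand, is shown for contrast, since Ccl3 is the abundant neighbour that was not called. It aligned to those of Ccl9 and Ccl6 with scores of 11 and 13.
Ccl3: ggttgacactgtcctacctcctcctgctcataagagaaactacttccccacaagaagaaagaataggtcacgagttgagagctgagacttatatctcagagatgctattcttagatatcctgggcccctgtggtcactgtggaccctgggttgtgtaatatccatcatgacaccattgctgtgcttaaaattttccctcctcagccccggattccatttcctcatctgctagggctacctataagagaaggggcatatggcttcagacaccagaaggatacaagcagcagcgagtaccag

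Motifs were sought on both strands of these promoters. They were an NF-kB-like motif (GGGA and TTCC parted by any 2 bases), a C/EBP-like TTGCNNAA, a PU.1-like GAGGAAGT and an ISRE-like motif (GAAA and GAAA parted by any 2 bases), named for the interferon-stimulated response element. Among 32851 RefSeq promoters of this length, 1.47% held the NF-kB-like motif, 10.8% the C/EBP-like, 3.20% the PU.1-like and 3.44% the ISRE-like motif. None of the 4 was found in the windows of Ccl3, Ccl6 and Ccl9, which says only that these letters are not there. The Cxcl10 promoter, chr5:92348840-92349139 on the minus strand, held an ISRE-like match that starts at -213 and an NF-kB-like match that starts at -159, in capitals below.
Cxcl10: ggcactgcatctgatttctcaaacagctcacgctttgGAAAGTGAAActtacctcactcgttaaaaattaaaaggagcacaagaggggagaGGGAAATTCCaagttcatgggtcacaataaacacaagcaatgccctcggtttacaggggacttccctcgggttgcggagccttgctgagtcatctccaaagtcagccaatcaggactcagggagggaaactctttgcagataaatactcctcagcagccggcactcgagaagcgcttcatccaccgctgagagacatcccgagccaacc
The Cxcl2 promoter held the NF-kB-like motif on both strands in overlapping matches, GGGAATTTCC from -97 and GGAATTTCCC from -96. These matches are descriptions of sequence and do not show binding.

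Ccl9, formerly called MIP-1 gamma, encodes a ligand of the receptor CCR1 and was the second most abundant of the 10 (ENSMUSG00000019122, GRCm38, minus strand of chromosome 11, 83572919 to 83578636). It was at 151.1, 150.95 and 150.6 TPM in L28BME libraries and at 217.3, 226.6 and 217.6 TPM in ME libraries. All L28BME values lay below all ME values, and the spread within L28BME was under 1 TPM. The mean was 150.9 ± 0.252 TPM in L28BME and 220.5 ± 5.27 TPM in ME (SD, n = 3 each). The log2 fold change was -0.54 (SE 0.030, 95% interval -0.62 to -0.47, limma adjusted p = 3.91e-04), which on the scale of the fit is 0.686 times the ME level.

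Ccl6, also called C10, encodes another CCR1 ligand and lies 9.245 kb from Ccl9 on the same strand (ENSMUSG00000018927, 83587882 to 83593087). It was at 41.3, 39.5 and 39.4 TPM in L28BME libraries and at 55.9, 59.4 and 58.5 TPM in ME libraries. These groups did not overlap either. The mean fell to 40.1 ± 1.06 TPM in L28BME, against 57.9 ± 1.80 TPM in ME (SD, n = 3 each), with a log2 fold change of -0.52 (SE 0.044, 95% interval -0.63 to -0.41, limma adjusted p = 0.00132). The calls of Ccl9 and Ccl6 held under all 16 alternative settings tried, leaving out any 1 library included.

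The changes of both genes were close in size. Mean TPM fell by 31.6% for Ccl9 and fell by 30.9% for Ccl6. Within a library, Ccl9 was 3.66, 3.82 and 3.82 times as abundant as Ccl6 in L28BME and 3.89, 3.81 and 3.72 times in ME, and the groups overlapped. Over the 6 libraries the Pearson r of log2(TPM + 1) between them was 0.995, given as a description, since the points share the difference between the groups. The median change of all genes called lower was -0.37 on the log2 scale.

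Ccl3, or MIP-1 alpha, a ligand of CCR1, was the most abundant of the 10 (ENSMUSG00000000982, chromosome 11, 83647844 to 83649355 on the minus strand). It was at 225.5, 227.2 and 229.3 TPM in L28BME libraries and at 220.8, 220.3 and 231.8 TPM in ME libraries. The L28BME values lay within the ME range. The log2 fold change was 0.020 (SE 0.032, limma adjusted p = 0.721), and its 95% interval of -0.057 to 0.097 corresponds to 0.961 to 1.07 times the ME level.

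Ccl4, or MIP-1 beta, a chemokine of macrophages and lymphocytes, lies 13.2 kb from Ccl3 on the plus strand (ENSMUSG00000018930, 83662584 to 83664683). Its values were 17.5, 17.4 and 16.3 TPM in L28BME and 16.5, 18.2 and 18.3 TPM in ME, and the groups overlapped. The log2 fold change was -0.047 (SE 0.065, 95% interval -0.20 to 0.11, limma adjusted p = 0.682). Ccl3 was 12.9, 13.1 and 14.1 times as abundant as Ccl4 in L28BME libraries and 13.3, 12.1 and 12.7 times in ME libraries.

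**Figure D2:**
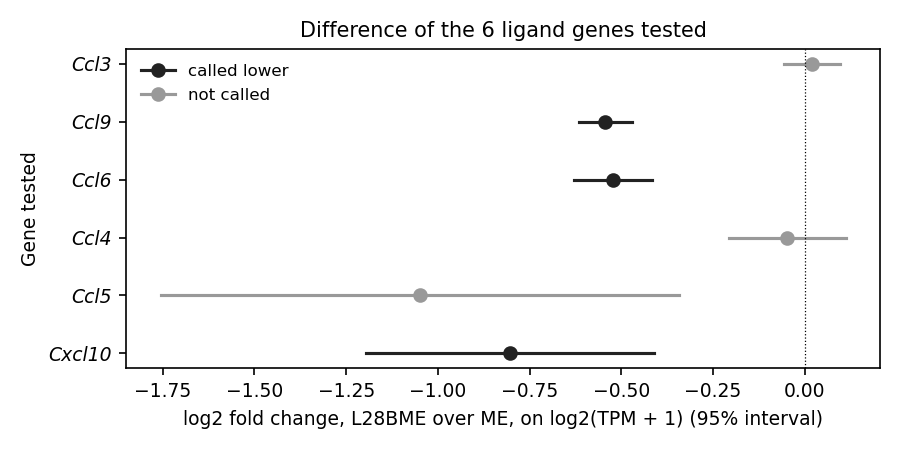
Points are log2 fold changes of L28BME over ME for the 6 ligand genes tested and lines their 95% intervals. The intervals of Ccl9 and Ccl6 lie between -0.63 and -0.41, while those of Ccl3 and Ccl4 include 0.

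The level of Ccl9 and Ccl6 was also read relative to Ccl3 within each library, in ratios chosen after the values were seen. Ccl9 was 0.670, 0.664 and 0.657 times as abundant as Ccl3 in L28BME and 0.984, 1.03 and 0.938 times in ME, without overlap between the groups. Ccl6 was 0.183, 0.174 and 0.172 times as abundant as Ccl3 in L28BME and 0.253, 0.270 and 0.252 times in ME. For each of these ratios a two-sided exact permutation test gave p = 0.1, the smallest p that 3 libraries against 3 allow (0.2 after adjustment over 4 ratios). That outcome followed from values already seen, so the test adds nothing to the differences of Ccl9 and Ccl6. Together the 10 ligands made up 437 to 438 TPM in L28BME libraries and 518 to 532 TPM in ME libraries. Ccl3 held 51.9% of this sum in L28BME and 42.5% in ME, and Ccl9 held 34.5% and 41.8% in the same groups.

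The 5 genes Ccl5, Ccl9, Ccl6, Ccl3 and Ccl4 are neighbours within 138.9 kb of chromosome 11, in this order. Gaps between them are 42.4 kb from Ccl5 to Ccl9, 9.245 kb from Ccl9 to Ccl6, 54.8 kb from Ccl6 to Ccl3 and 13.2 kb from Ccl3 to Ccl4. GENCODE lists 2 other measured genes in this stretch, and neither was above 0.291 TPM in any library. One of them, E230016K23Rik, overlaps Ccl6 on the opposite strand and was listed at 0 throughout. Of 17 tested genes in the 500 kb on each side, 1 was called lower and 3 higher, and 13 were not called, against 14.9% of all genes called either way. The lower one was 1700020L24Rik, at 13.8 TPM in L28BME and 25.8 TPM in ME (log2 fold change -0.85, limma adjusted p = 0.00124). The higher ones were Slfn2, Taf15 and Wfdc17. These flanking genes were chosen by position after values were seen.

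**Figure D3:**
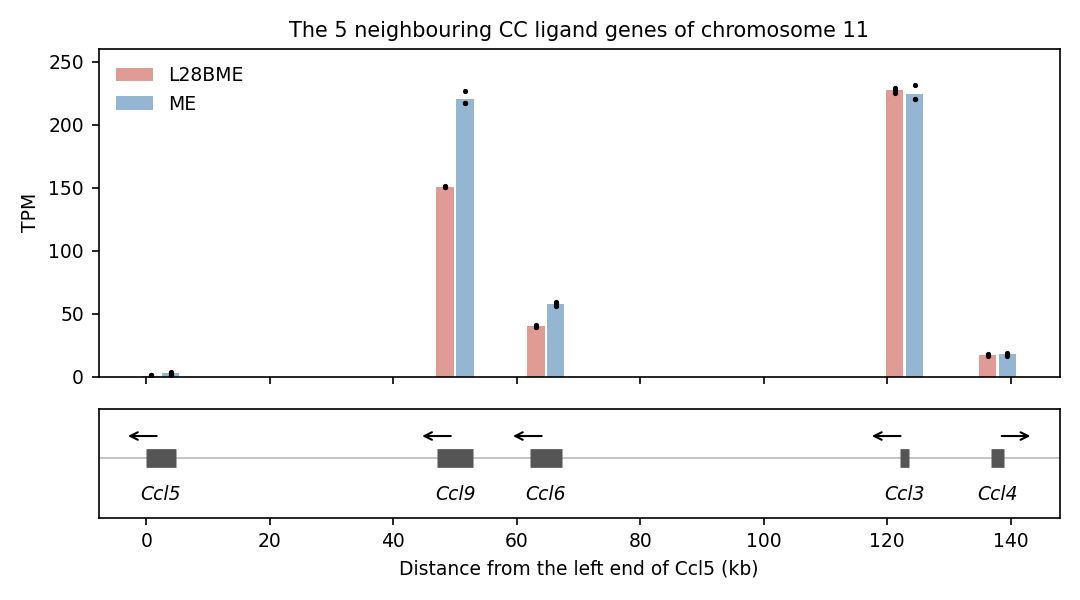
Bars are mean TPM, with L28BME left of ME, and dots single libraries (n = 3 each), placed at each gene's centre against the distance from the left end of Ccl5 in kb, with gene bodies and transcription direction below. The L28BME bars of Ccl9 and Ccl6 are lower than the ME bars, while those of Ccl3 and Ccl4 are close in height to those of ME.

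Ccl5, or RANTES, a T cell and myeloid chemokine that binds CCR1 and CCR3, did not pass the test (ENSMUSG00000035042, chromosome 11, 83525778 to 83530518). It was at 1.24, 0.259 and 0.811 TPM in L28BME libraries and at 3.10, 3.29 and 1.57 TPM in ME libraries. The groups did not overlap, but the spread was wide, with a coefficient of variation of 63.8% in L28BME and 35.5% in ME. The log2 fold change was -1.05 (SE 0.29, 95% interval -1.76 to -0.34, limma adjusted p = 0.0642), and it depends on the pseudocount, being -1.79 with a pseudocount of 0.1. Markers of T and NK cells, which make much Ccl5 in blood, summed to 0.275 to 0.682 TPM in L28BME and 0 to 0.0607 TPM in ME. None of those 8 markers was tested, and Cd3e, Cd8a and Ncr1 were listed at 0 in every library.

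Cxcl10, or IP-10, an interferon-induced ligand of CXCR3, was called lower, but entered the test only through the ME libraries, where it was higher (ENSMUSG00000034855, chromosome 5, 92346638 to 92348889 on the minus strand). It was at 0.336, 0.352 and 0.793 TPM in L28BME libraries and at 1.54, 1.40 and 1.82 TPM in ME libraries. The mean fell to 0.494 ± 0.260 TPM in L28BME, against 1.59 ± 0.210 TPM in ME (SD, n = 3 each). The log2 fold change was -0.80 (SE 0.16, limma adjusted p = 0.0250, or 0.0358 with no minimum TPM), or -1.58 with a pseudocount of 0.1. Its call was lost without any 1 library other than L28BME replicate 3 (adjusted p = 0.0634 to 0.0851). Art3 overlaps Cxcl10 on the opposite strand at up to 0.412 TPM, and whether strand was used in quantification is not given in the sources used here.

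Ccl2, or MCP-1, the monocyte chemokine that binds CCR2, was at 0.381, 0.260 and 0.144 TPM in L28BME libraries and at 0.551, 1.06 and 0.795 TPM in ME libraries. Cxcl2, or MIP-2, a neutrophil chemokine that binds CXCR2, was at 0.251, 0.683 and 0.447 TPM in L28BME and at 0.878, 0.820 and 0.879 TPM in ME. In both genes all L28BME values lay below all ME values. Ccl24, or eotaxin-2, an eosinophil chemokine that binds CCR3, was at 0.825, 0.447 and 0.128 TPM in L28BME and at 1.22, 1.23 and 0.776 TPM in ME, and its groups overlapped. Cxcl16, a membrane-bound chemokine that is cut from the cell surface and binds CXCR6, was listed at 0 in 5 libraries and at 0.0644 TPM in ME replicate 2. In GRCm38, Ccl2 (ENSMUSG00000035385) lies at 82035571 to 82037453 and Cxcl16 (ENSMUSG00000018920) at 70453983 to 70459984 of chromosome 11. Cxcl2 (ENSMUSG00000058427) lies at 90903871 to 90905938 and Ccl24 (ENSMUSG00000004814) at 135569937 to 135573049 of chromosome 5. These 4 genes were not tested. With no minimum TPM, none of them passed over 23940 genes, with limma adjusted p of 0.0859 for Ccl2, 0.168 for Cxcl2, 0.230 for Ccl24 and 0.685 for Cxcl16.

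The 3′ UTRs were read from GENCODE transcripts for let-7 sites and AU-rich elements, as a description of sequence. Only exact matches in the longest annotated 3′ UTR of each gene were sought. Whether let-7 or decay factors play a part in the changes of the ligands was not tested. The mature sequence of a let-7 microRNA from RefSeq, let-7a-5p, is shown with its seed (bases 2 to 8) in capitals, because LIN28B acts on this family. The only match to the seed, CTACCTC, among the 10 ligands was in Cxcl16, shown with the match in capitals.
let-7a-5p: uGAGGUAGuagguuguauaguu
Cxcl16: gaccctttgcctCTACCTCctagattctgc
Of all 21037 genes with a 3′ UTR, 9.02% held this match. Ccl9 and Ccl6 held none in 3′ UTRs of 2465 and 943 bases. The AU-rich pentamer ATTTA was found in 8 of the 10 ligands and in 65.2% of all genes. It was densest in Ccl3, with 5 in 409 bases, and in Cxcl2, with 11 in 1494 bases. As many or more were found in 1.14% and 0.831% of genes with 3′ UTRs of like length (shorter over longer at least 0.8). Ccl6 held 4 in 943 bases and Ccl9 5 in 2465 bases, numbers reached by 17.2% and 46.6% of genes of like length. The stretches of 30 bases with the most pentamers are shown for an abundant ligand that was not called, for a called one and for the ligand with the most, with ATTTA in capitals.
Ccl3: gactcttcacttgaaattttATTTAATTTA
Ccl6: ccttgtttttatagatATTTAaagcATTTA
Cxcl2: tATTTATTTAtctatgtATTTATTTATTTA
Of 7 tested genes for factors that bind such elements, 2 were called higher, 1 lower and 4 not, where 8.28% of all genes tested were called higher and 6.6% lower. Zfp36, which encodes tristetraprolin, rose to 37.4 ± 1.97 TPM in L28BME, against 28.5 ± 1.08 TPM in ME (SD, n = 3 each; log2 fold change 0.38, limma adjusted p = 0.00979). Its relative Zfp36l1 rose to 9.28 TPM in L28BME, against 6.77 TPM in ME, a call lost when any 1 library was left out (adjusted p = 0.0532 to 0.103). Zfp36l2 fell to 214 TPM in L28BME, against 241 TPM in ME (adjusted p = 0.0125). Its call was lost when limma was run without its trend option (adjusted p = 0.0513) or with replicate number as a block (0.0594).

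Of 10 receptor genes on the list, 4 were tested and 1 was called lower, against 6.6% of all genes tested. Ccr2, the receptor of Ccl2, fell to 10.5 ± 0.820 TPM in L28BME, against 21.8 ± 2.26 TPM in ME (SD, n = 3 each; log2 fold change -0.99, limma adjusted p = 0.00223). Ccr1, the receptor shared by Ccl3, Ccl5, Ccl6 and Ccl9, was at 2.34 ± 0.122 TPM in L28BME and 2.57 ± 0.171 TPM in ME and was not called (adjusted p = 0.564). Ccr3, Cxcr6 and Ackr2 were listed at 0 in every library. Among 27 other ligand genes 6 were tested and 13 were listed at 0 throughout. The platelet chemokines Pf4 and Ppbp, both of the CXC class, were the 2 called, as higher. Pf4 was at 52.4 ± 6.08 TPM in L28BME and 19.3 ± 1.53 TPM in ME (SD, n = 3 each; log2 fold change 1.39, limma adjusted p = 8.45e-04). Ppbp was at 3.14 ± 0.358 TPM in L28BME and 0.705 ± 0.408 TPM in ME (SD, n = 3 each; limma adjusted p = 0.00887). It reached 1 TPM in every L28BME library and in ME replicate 1 alone of the ME libraries, and with no minimum TPM its adjusted p was 0.0195. Both are also markers of megakaryocytes and platelets, a list of 6 of which 4 were called higher and 0 lower, against 8.28% and 6.6% of all genes tested. The other 2 called were Itga2b and Gp9, while Vwf and Gp1bb were not called. The list, Pf4 and Ppbp included, had a sum of 125 to 142 TPM in L28BME and 81.9 to 86.2 TPM in ME. The part of those cells in this rise was not tested. Ccl25, a thymus and gut chemokine, was at 11.1 TPM in L28BME and 11.4 TPM in ME and was not called.

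Signalling genes upstream of chemokines were read against the share of all genes called. Of 17 NF-kB pathway genes tested, 2 were called lower and 0 higher, where 14.9% of all genes tested were called either way, and the median log2 fold change was -0.068, against 0.0033 for all genes tested. The lower ones were Nfkbia, the NF-kB inhibitor, at 34.2 TPM in L28BME and 39.5 TPM in ME (limma adjusted p = 0.0457), and Myd88, a Toll-like receptor adaptor, at 64.9 TPM in L28BME and 75.5 TPM in ME (adjusted p = 0.0185). The call of Nfkbia was lost when any 1 library other than ME replicate 2 was left out, and that of Myd88 when any other than L28BME replicate 3 was (adjusted p up to 0.132 and 0.0621). Of 13 interferon response genes tested, 1 was called, against the same 14.9% of all genes. It was Ifit2, at 8.14 TPM in L28BME and 10.1 TPM in ME (adjusted p = 0.0488), and its call was lost when any 1 library was left out (0.0701 to 0.140). Of 6 inflammatory cytokines tested 0 were called, too few genes to read against 14.9%. Tnf, a cytokine induced alongside chemokines, was at 24.7 TPM in L28BME and 27.0 TPM in ME (adjusted p = 0.211).

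Of 12 tested genes whose products cut or bind chemokines, 2 were called higher and 3 lower, where 8.28% of all genes were called higher and 6.6% lower. The neutrophil serine proteases Ctsg, at 1711 ± 13.6 TPM in L28BME and 2526 ± 39.9 TPM in ME, and Elane, at 851 ± 35.5 TPM in L28BME and 1218 ± 27.0 TPM in ME (SD, n = 3 each; limma adjusted p = 1.57e-04 and 8.9e-04), were lower. So was Srgn, the granule proteoglycan serglycin, at 1302 TPM in L28BME and 1555 TPM in ME (limma adjusted p = 0.00317). Prtn3, another neutrophil serine protease, was at 368 TPM in L28BME and 454 TPM in ME. Its groups overlapped and it was not called (limma adjusted p = 0.106). The higher ones were Sdc1, a heparan sulfate proteoglycan, at 23.3 TPM in L28BME and 17.04 TPM in ME (adjusted p = 0.00639), and Mmp8, neutrophil collagenase, at 15.4 TPM in L28BME and 11.9 TPM in ME, whose call was lost when any 1 library other than L28BME replicate 2 was left out (adjusted p up to 0.107). Among 11 myeloid transcription factors tested, 2 were called higher and 1 lower, against the same shares of all genes. Gfi1, a repressor that shapes granulocyte development, was lower, at 42.4 ± 0.242 TPM in L28BME and 63.7 ± 0.760 TPM in ME (SD, n = 3 each; limma adjusted p = 5.42e-04). Cebpb, at 14.5 TPM in L28BME and 10.3 TPM in ME, and Fos, at 7.89 TPM in L28BME and 6.01 TPM in ME, were higher. The call of Cebpb was lost when any 1 library other than L28BME replicate 2 was left out, and that of Fos when any 1 was (adjusted p up to 0.0867 and 0.0967). Spi1, which encodes PU.1, was at 107 TPM in L28BME and 103 TPM in ME and was not called.

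**Figure D4:**
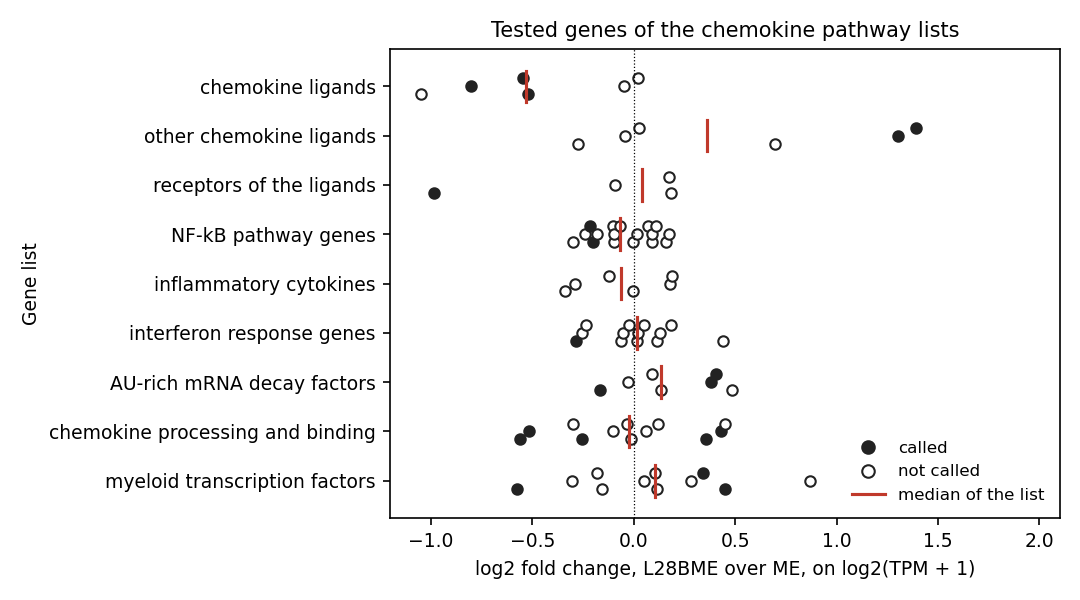
Each point is the log2 fold change of L28BME over ME of 1 tested gene on log2(TPM + 1), filled where it was called, and red lines are list medians. Most genes of the NF-kB and interferon lists lie within 0.3 of no difference, while Ccl9, Ccl6 and Cxcl10 are the filled points left of 0 in the top line.

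Markers of myeloid cell types are given beside Ccl6 and Ccl9, with 8.28% of all genes tested called higher and 6.6% lower. Of 11 monocyte and macrophage markers, 6 were tested, 1 was higher and 3 lower, and their sum was 283 to 305 TPM in L28BME and 415 to 442 TPM in ME. The lower ones were Ly6c2, Cd68 and Itgam, the higher one was Csf1r, and Adgre1 and Cx3cr1 were not called. Ly6c2 made up most of the sum, at 190 TPM in L28BME and 289 TPM in ME. Itgam is part of this count and sum, but with overlapping gene models summed it was not called (limma adjusted p = 0.995). C1qa and Marco, markers of tissue macrophages, were listed at 0 in every library. Of 8 basophil and mast cell markers 5 were tested and 2, Mcpt8 and Cpa3, were lower, with a sum of 334 to 340 TPM in L28BME and 418 to 451 TPM in ME. Neutrophil markers summed to 488 to 505 TPM in L28BME and 187 to 195 TPM in ME. Of 5 tested, 3 were higher and none lower. Most of this sum was S100a8 and S100a9. S100a8 was at 241 TPM in L28BME and 93.8 TPM in ME, and S100a9 at 237 TPM in L28BME and 85.7 TPM in ME. The other higher gene was Ltf, while Camp and Cxcr2 were not called. Ly6g, Mmp9 and Retnlg were too low to be tested. The neutrophil serine proteases Ctsg and Elane, which are not on this list, were lower in L28BME, while Prtn3, another of them, was not called. Of 5 eosinophil markers tested, Epx, Prg3 and Siglecf were higher and 0 lower. The 8 eosinophil markers summed to 92.4 to 96.1 TPM in L28BME and 68.8 to 75.5 TPM in ME. Of 4 dendritic cell markers tested, Itgax and H2-Aa were lower, Flt3, also a progenitor marker, was higher, and Siglech was not called. The part of these cell types in the lower Ccl9 and Ccl6 was not tested.

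Genes were also ranked by likeness to Ccl3, the ligand with the highest mean, using the Pearson r of log2(TPM + 1) over the 6 libraries among 7061 genes outside the lists with a mean of at least 20 TPM. Among the nearest were Uspl1 (r = 0.990), Ahctf1 (0.963), Adprhl2 (0.957) and Dhdds (0.954), none of which was called. For Ccl9, ranked in the same way after its values were seen, 347 genes reached an r of 0.95, and the nearest were Ms4a3, Emilin2, Muc13, Anxa5 and Mgat5. These 5 were all called lower. Ms4a3, a gene of granulocyte and monocyte progenitors, was at 239 TPM in L28BME and 682 TPM in ME, and the log2 fold changes of the other 4 ran between -1.10 and -0.36. With 6 libraries in 2 groups, such an r with Ccl9 mainly reflects the difference between the groups. Ccl3 was not called and ranged only from 220 to 232 TPM, and 6 genes reached an r of 0.95 with it. The highest r among 7061 genes over 6 libraries can be this high without a link between the genes.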

How the data were processed

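Bulk RNA was measured in 3 L28BME and 3 ME libraries made with a stranded mRNA kit, per the labels' protocols. The authors deposited TPM per gene and library. Per the submitters' processing notes, bcl2fastq, HISAT2, StringTie and DESeq2 were used with GRCm38, for which the sources used here give neither versions nor the use of strand. Percent GC per gene, also deposited, is a property of the annotation and was not used in a test. TPM keep no depth, so count models were not used here.

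The 60496 entries were reduced to 55471 gene IDs. Genes reaching 1 TPM in 3 or more of 6 libraries were analysed as log2(TPM + 1) with limma 3.58.1 (trend, two-sided) in R 4.3.3, with adjustment over 13348 genes, and the procedure was tested on simulated data. A fold change on this scale understates the change of low genes. The exact permutation test used scipy 1.17.1. Positions and 3′ UTRs came from GENCODE M21 on GRCm38.

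The members and lists were chosen with earlier results of these data known. Named genes were the 10 ligands, the called genes of each list, up to 3 further abundant genes of each, and the 5 most like Ccl3. Genes named by position or by likeness to Ccl9 were picked with their values in view. As alternatives, the pseudocount, filter, scaling and limma trend options were varied, replicate number was added as a block, single libraries were left out, and overlapping gene models were summed. Protein sequences were not used here, and some genes that this rule names are not reported here.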

Additional observations from a re-analysis of the deposited data

How the results depend on the processing

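Ccl9 and Ccl6 kept their direction and call, and Ccl3 and Ccl4 stayed uncalled, in all 16 alternatives, with log2 fold changes of -0.55 to -0.52 for Ccl9, -0.55 to -0.50 for Ccl6, 0.0071 to 0.044 for Ccl3 and -0.091 to -0.016 for Ccl4. The number of ligands called lower was 3 in 9 alternatives and 2 in 7, where Cxcl10 was lost or, with a minimum of 5 TPM, not tested. Ccl5 was not called in any of 15 alternatives (limma adjusted p = 0.0526 to 0.170) and was not tested with a minimum of 5 TPM. No other scaling moved the median of all genes by as much as 0.1 on the log2 scale.

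Equal replicate numbers did not pair the libraries, since same-numbered libraries had correlations of deviations between -0.074 and -0.032. With the replicate block, 400 genes were called lower and 548 higher, against 881 and 1105 without it, and 2 ligands were called lower, with Cxcl10 at adjusted p = 0.0522. With 1 library left out, the gene counts were 461 to 582 lower and 617 to 693 higher, and the lone pair of libraries left in a group was assumed to vary like the other group. Of 17 called genes on the other pathway lists, 8 kept their call in every alternative in which they were tested, 9 lost it in at least 1 and none reversed. Among these, Zfp36 lost it with the replicate block alone. Marker lists were not followed through the alternatives, apart from Itgam with overlapping gene models summed. Depth is unknown, so how far it limits the 6 ligands under 4 TPM cannot be stated.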
